A study of Mus musculus with 4 samples.

Results

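The transcripts described here encode the machinery that copies the genome in S phase, together with enzymes that supply its building blocks. A list of 39 such genes was drawn up, and a gene entered where the platform annotation ties a probe set (a group of array probes read as 1 value) to its symbol alone. Where a gene had several, the probe set with the highest mean over the 4 arrays was used and dim genes were kept. This gave 38 genes of the 22180 with a symbol. Rfc4, a clamp loader subunit, was not analysed because its probe set also carries another symbol. Levels came from Affymetrix arrays of mammary epithelial cells from the inguinal glands of 4 week-old mice, congenic on FVB/NJ. The MMTV-Cre group held 2 samples from mice with a Cre recombinase transgene under the mouse mammary tumour virus promoter, and the wild-type group held 2 samples from littermates without it. The viral promoter responds to steroid hormones and is active in mammary and some other cells, so not every cell of such a gland need express Cre. The labels give neither the transgenic line nor the sex of the mice nor whether glands were pooled. They call the samples biological replicates without saying how many mice each holds, so the p-values measure the spread between samples.

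Replication starts where the origin recognition complex, Cdc6 and Cdt1 load the Mcm2 to Mcm7 helicase on DNA. Cdc45 and the GINS complex then join the helicase and activate it, primase and polymerase alpha lay down primers, and polymerases epsilon and delta extend the leading and lagging strands, held to the template by the ring-shaped clamp Pcna. Many of these genes are switched on together before S phase by E2F transcription factors. In the pubertal gland, dividing cells are concentrated in the terminal end buds at the tips of the growing ducts.

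A feature that the choice of members did not use is the E2F-type sequence in their promoters. RefSeq promoter windows of GRCm38.p6, each from 250 bases before to 50 after a gene start, were matched by Entrez identifier for 32 of the 38 members. They were searched on both strands for TTTCCCGC, TTTGGCGC, TTTCGCGC and TTTGCCGC, whose matches may overlap. At least 1 match was present for 15 of 32 members (46.9%), against 550 of 16918 array genes with a window (3.25%). In this count by gene, a gene with several windows was represented by the one with the most matches. Counted by window, a match was present in 15 of 39 member windows (38.5%), against 2.26% of all 32851 windows. The matched members with more than 1 site were Mcm6 with 3 and Mcm3, Mcm5, Mcm7 and Rfc3 with 2 each. The windows of Mcm2, Pcna, Fen1, Rrm1, Rrm2, Tyms and Tk1 held none of these strings, and Mcm4 had no window in the table. Only these exact strings inside the windows were searched, so a missing match does not show that a gene lacks an E2F site. The first 4 windows by number of matches and then by symbol are shown, and all 4 belong to helicase subunits. The window of Rfc3, next in that order, is not shown. Matches are in capitals, and the windows are written 5′ to 3′ on the strand of the gene.
Mcm6, chr1:128359656-128359955, minus strand: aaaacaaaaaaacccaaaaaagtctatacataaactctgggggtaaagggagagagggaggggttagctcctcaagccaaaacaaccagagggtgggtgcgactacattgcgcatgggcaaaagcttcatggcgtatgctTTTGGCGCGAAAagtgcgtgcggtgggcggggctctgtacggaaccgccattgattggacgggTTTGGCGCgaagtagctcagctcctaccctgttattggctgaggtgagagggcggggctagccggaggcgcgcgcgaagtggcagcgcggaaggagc
Mcm3, chr1:20820263-20820562, minus strand: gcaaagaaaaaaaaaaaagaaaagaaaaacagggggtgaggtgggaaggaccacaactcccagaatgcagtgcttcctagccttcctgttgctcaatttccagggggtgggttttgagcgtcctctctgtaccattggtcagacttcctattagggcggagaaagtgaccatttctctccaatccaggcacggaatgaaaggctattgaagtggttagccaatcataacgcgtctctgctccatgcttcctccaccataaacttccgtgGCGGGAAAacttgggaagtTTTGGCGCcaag
Mcm5, chr8:75109259-75109558, plus strand: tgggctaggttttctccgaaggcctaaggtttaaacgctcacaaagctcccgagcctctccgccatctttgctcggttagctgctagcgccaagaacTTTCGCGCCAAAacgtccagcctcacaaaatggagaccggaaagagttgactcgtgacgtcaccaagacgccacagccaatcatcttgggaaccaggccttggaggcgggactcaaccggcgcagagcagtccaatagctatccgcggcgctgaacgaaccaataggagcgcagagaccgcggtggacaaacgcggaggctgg
Mcm7, chr5:138171834-138172133, minus strand: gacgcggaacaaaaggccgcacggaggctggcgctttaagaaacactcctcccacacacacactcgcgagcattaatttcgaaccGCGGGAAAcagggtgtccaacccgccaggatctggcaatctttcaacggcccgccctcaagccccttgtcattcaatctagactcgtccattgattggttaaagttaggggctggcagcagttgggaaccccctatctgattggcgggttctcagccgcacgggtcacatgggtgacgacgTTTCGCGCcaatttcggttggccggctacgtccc
In Mcm6 and Mcm5 a match on the gene's strand overlaps one on the opposite strand, so that the capitals form 1 longer run. Such a match is a string of letters and no measurement of binding. The 15 members with a match had a median log2 difference, MMTV-Cre minus wild-type, of 0.02 (range −0.19 to 0.31), and the 17 with a window but no match had a median of −0.07 (−0.32 to 0.38).

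The arrays were first checked for the labelled cell type. All 13 luminal markers measured and 8 of 9 basal markers lay at or above the median probe set, but so did 9 of 9 fibroblast, 8 of 8 endothelial, 6 of 7 adipocyte and 6 of 9 macrophage markers. This measure alone does not set epithelium apart from stroma. Each gene was then taken relative to its own mean over the arrays. The mean level of the luminal list stayed between −0.04 and 0.07 and that of the basal list between −0.03 and 0.05. Single basal markers moved in opposite directions, with log2 differences, MMTV-Cre minus wild-type, from −0.33 (Krt14) to 0.40 (Acta2). Of 9 basal markers, 4 lay above 0 and 5 below. Krt14 stood at 7.27 in MMTV-Cre replicate 1 but at 7.97 or above elsewhere. Luminal differences ran from −0.13 to 0.19. A steady list mean therefore does not show a steady epithelial content. Wild-type replicate 1 stood apart by lymphocyte transcripts, although the labels describe the dissected glands as lacking the lymph node. Of 11 T and NK cell markers 10 were highest there, with a mean relative level of 1.47 against −0.55 to −0.43 in the other arrays, and all 7 B cell markers were highest there too. Cd3g, of the T cell receptor complex, measured 6.63 in that array and 2.51 to 2.71 elsewhere. MMTV-Cre replicate 2 had the highest value for 8 of 9 fibroblast markers (mean relative level 0.37 against −0.16 to −0.10) and 5 of 9 macrophage markers. Of 8 endothelial markers, 4 were highest there and 4 in wild-type replicate 2, with a mean relative level of 0.20 in both arrays. MMTV-Cre replicate 1 had the lowest value for 5 of 7 adipocyte markers.

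The comparison asked whether replication transcripts differ between glands with and without Cre. None of the 38 members passed the threshold, an adjusted p under 0.05 by limma over all 22180 genes, where 0 genes (0.0%) passed. Their log2 differences ran from −0.32 for Fen1 to 0.38 for Tyms with a median of −0.04, against a median of 0.00 over all genes. There were 21 members below 0 (55.3%, against 50.4% of all genes) and 17 above. The groups were separate, with the lower array of 1 group above the higher array of the other, in 13 members (34.2%, against 33.0% of all genes). Of these, 9 were lower in MMTV-Cre (23.7%, against 16.3%) and 4 were higher (10.5%, against 16.6%). Only Fen1 had an unadjusted p under 0.05, which is 2.63% of the members against 4.56% of all genes. The share of members with separate groups thus lies near that of the whole array. Of these 13 members 9 were on the lower side, a split that was not tested and that moved with the processing. When probe sets were averaged within each gene, 7 of 12 separate members were lower. Under quantile normalization or median centring 8 of 12 were lower. Over the 42 probe sets of the members taken singly, 15 were separate and 10 of them lower.

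The precision sets what could have been seen. The 95% interval of each of the 38 members lay inside 1 log2 unit in both directions, that is inside a 2-fold difference. This held for 97.0% of all genes. In 28 members the interval lay inside 1.5-fold (73.7%, against 72.0% of all genes). The median half-width of the intervals was 0.34, against 0.35 over all genes. The fit draws each gene's variance towards a common value, so these half-widths are partly alike by construction. In 27 of the 38 members the 2 arrays of at least 1 group were further apart than the group means (71.1%, against 78.5% of all genes). With 2 samples against 2, a two-sided exact permutation test cannot give a p below 0.333. Less RNA per cell and fewer cells in S phase cannot be told apart in such bulk samples, and cell division itself was not measured.

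**Figure D1:**
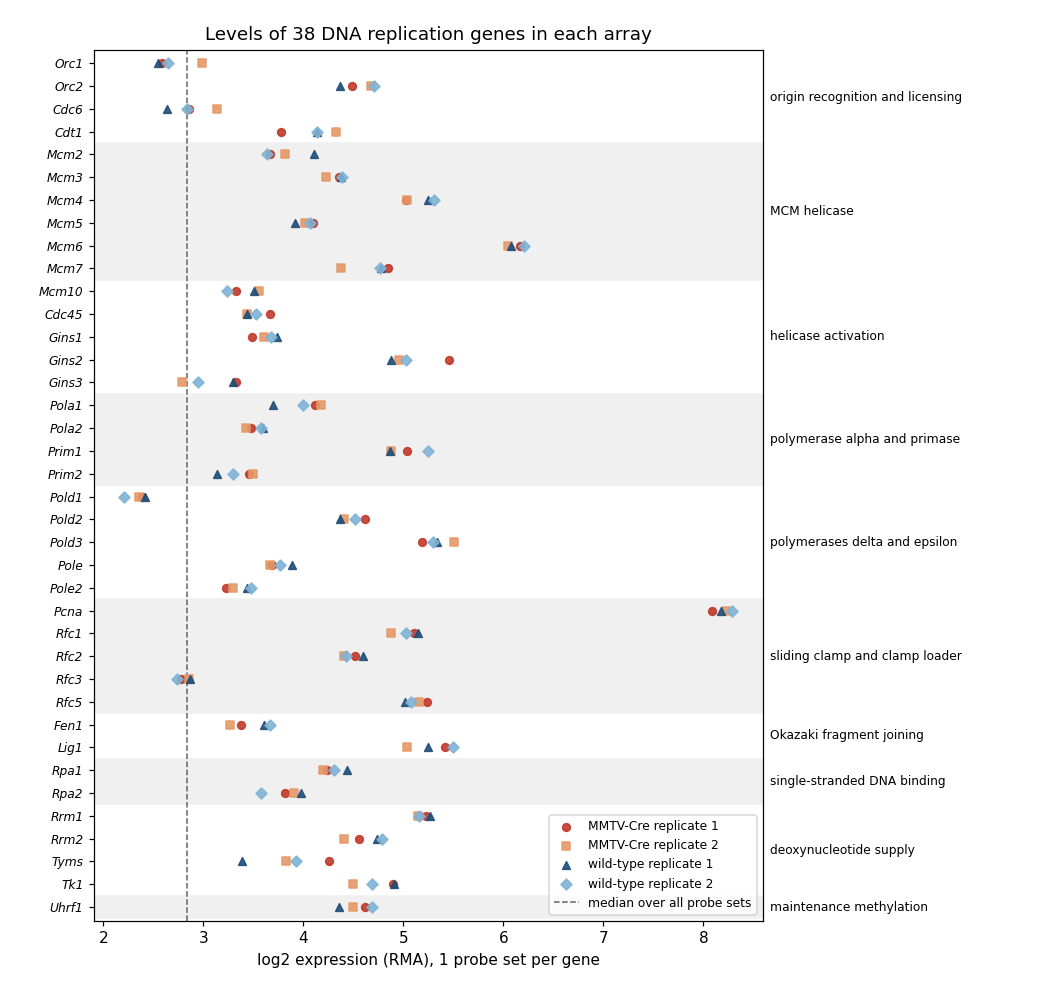
Log2 expression (x axis) of the 38 members (rows, grouped by role) with 1 symbol for each of the 4 arrays, and a dashed line at the median over all probe sets, 2.84. Within each row the red and orange symbols of MMTV-Cre and the blue ones of wild-type lie close together, the widest spread being that of Tyms, and levels of different genes cannot be compared with each other because probe sets differ in brightness.

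Licensing genes came first in order of action. Cdc6, the ATPase that recruits the helicase to origins, stood at 2.86 and 3.14 in the MMTV-Cre arrays (replicates 1 and 2, here and below) and at 2.64 and 2.84 in wild-type. Both MMTV-Cre arrays were higher, the nearer one by a margin of hundredths, and the log2 difference was 0.26 (95% interval −0.12 to 0.65), or 0.17 without wild-type replicate 1. Orc1, the largest origin recognition subunit, stood at 2.59 and 2.99 against 2.55 and 2.65, a difference of 0.18 that rested on MMTV-Cre replicate 2. Both genes lie near the 2.84 of a median probe set, a dimness at which array signals tend to understate differences. Orc2, another subunit of that complex, differed by 0.04, and Cdt1, the partner of Cdc6 in helicase loading, by −0.08 (−0.58 to 0.41). Cdt1 spread most among the MMTV-Cre arrays, at 3.78 and 4.33, while both wild-type arrays stood at 4.14.

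The 6 subunits of the helicase ring had differences between −0.24 and 0.06, 5 of them below 0, with a median of −0.11. Mcm4 (Entrez Gene 17217) measured 5.03 and 5.04 in MMTV-Cre, with 5.25 and 5.31 in wild-type. The groups of Mcm4 were separate by more than the gap within either, and the difference was −0.24 (−0.53 to 0.04, limma adjusted p = 0.963). It lay between −0.21 and −0.27 when any 1 array was left out. Mcm3 was separate by a few hundredths only, at 4.36 and 4.23 against 4.38 and 4.39. Mcm7 stood at 4.85 and 4.38 against 4.78 and 4.77, so that its difference of −0.17 came from MMTV-Cre replicate 2 alone, and it turned to 0.07 without that array. Mcm2 was high in wild-type replicate 1, at 4.11 against 3.64 to 3.82 in the other arrays, and its difference of −0.13 turned to 0.10 without it. Mcm5 differed by 0.06 and Mcm6 by −0.03, with overlapping groups in both. The subunits assemble in equal number. The highest array was wild-type replicate 2 for 3 of them, MMTV-Cre replicate 1 for 2 and wild-type replicate 1 for 1. Wild-type replicate 2 led by hundredths only for Mcm3 (4.39, next 4.38) and Mcm6 (6.21, next 6.17). Whether the transcripts moved together over the arrays was not tested.

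Among factors that activate the helicase, Gins2 was the one with the largest difference, 0.25 (−0.23 to 0.74). It stood at 5.46 and 4.96 in MMTV-Cre against 4.88 and 5.03 in wild-type. Only MMTV-Cre replicate 1 was high, and without it the difference was 0.00. Gins1, another subunit of the same complex, had lower values in MMTV-Cre, 3.49 and 3.61 against 3.74 and 3.68, a difference of −0.16 (−0.47 to 0.14). Gins3 differed by −0.07 with gaps inside both groups, 3.33 and 2.79 against 3.30 and 2.95. Mcm10, which binds the active helicase, and Cdc45 each differed by 0.07. Subunits of 1 complex thus had differences on both sides of 0.

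Polymerase alpha and primase form 1 enzyme that starts each new strand. Pola1 (Entrez Gene 18968), its catalytic polymerase subunit, measured 4.12 and 4.18 in MMTV-Cre, with 3.70 and 4.00 in wild-type, a difference of 0.31 (−0.06 to 0.67, limma adjusted p = 0.963). Prim2, the large primase subunit, stood at 3.46 and 3.50 against 3.14 and 3.30, a difference of 0.25 (−0.06 to 0.56). Both were separate upward, with wild-type replicate 1 lowest, and their differences were 0.16 and 0.17 without that array. The other two subunits had differences below 0 with all 4 arrays. Pola2, the accessory subunit, had lower values in MMTV-Cre (3.48 and 3.43 against 3.60 and 3.58), and Prim1, the catalytic primase subunit, differed by −0.10 with overlapping groups. The difference of Prim1 was −0.29 without wild-type replicate 1 and turned to 0.09 without wild-type replicate 2.

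Polymerase epsilon, the leading strand enzyme, had both listed subunits separate and lower in MMTV-Cre. Pole stood at 3.69 and 3.67 against 3.89 and 3.77, a difference of −0.15 (−0.45 to 0.15) that its second probe set did not share. Pole2 stood at 3.23 and 3.30 against 3.44 and 3.48, a difference of −0.19 (−0.48 to 0.10). Polymerase delta, the lagging strand enzyme, had differences of 0.06 for Pold1, 0.07 for Pold2 and 0.03 for Pold3, all with overlapping groups. Pold1 was the dimmest member, with a mean of 2.34, and with Orc1 and Rfc3 it is 1 of 3 members below the median probe set.

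Pcna (Entrez Gene 18538), the sliding clamp, was steady over the arrays, with 8.09 and 8.23 in MMTV-Cre, 8.18 and 8.29 in wild-type, a difference of −0.07 (−0.39 to 0.24). The clamp loader opens the Pcna ring and closes it around DNA. Its large subunit Rfc1 differed by −0.09, and the small subunits Rfc2 and Rfc3 by −0.05 and 0.02, all with overlapping groups. Rfc5 was higher in both MMTV-Cre arrays, at 5.24 and 5.16 against 5.02 and 5.08, a difference of 0.15 (−0.14 to 0.45).

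Fen1 (Entrez Gene 14156), the flap endonuclease that trims the 5′ ends of Okazaki fragments, had the largest difference below 0. It measured 3.38 and 3.27 in MMTV-Cre, with 3.61 and 3.67 in wild-type. Both MMTV-Cre arrays were lower, with a difference of −0.32 (−0.62 to −0.02, limma unadjusted p = 0.0394, adjusted p = 0.963), or 1.25-fold. Without any 1 array the difference ran from −0.37 to −0.27, and its unadjusted p was then above 0.05 in each case. A second probe set for Fen1, much dimmer at a mean of 1.71, differed by 0.02. Lig1, the ligase that seals the fragments, stood at 5.42 and 5.04 against 5.25 and 5.50, a difference of −0.15 with overlapping groups that turned to 0.04 without MMTV-Cre replicate 2. Rpa1 and Rpa2, subunits of the protein that coats single-stranded DNA, differed by −0.16 (separate, lower) and 0.09 (overlapping).

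Enzymes of deoxynucleotide supply gave both a separated and a scattered pattern. Rrm2 (Entrez Gene 20135), the small subunit of ribonucleotide reductase whose level rises in S phase, measured 4.56 and 4.41 in MMTV-Cre, with 4.74 and 4.79 in wild-type, a difference of −0.28 (−0.59 to 0.03, limma adjusted p = 0.963). The groups did not overlap, and the difference ran from −0.35 to −0.21 when any 1 array was left out. Its partner Rrm1 differed by −0.03, with all arrays between 5.15 and 5.27. Tyms (Entrez Gene 22171), which makes thymidylate, had the largest difference of any member at 0.38 but also the widest interval (−0.20 to 0.97), since it stood at 4.26 and 3.83 against 3.39 and 3.93. The groups of Tyms overlapped, and the difference was 0.11 without wild-type replicate 1. Tk1, the thymidine salvage kinase, differed by −0.10, and Uhrf1, which guides maintenance methylation to newly copied DNA, by 0.03.

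**Figure D2:**
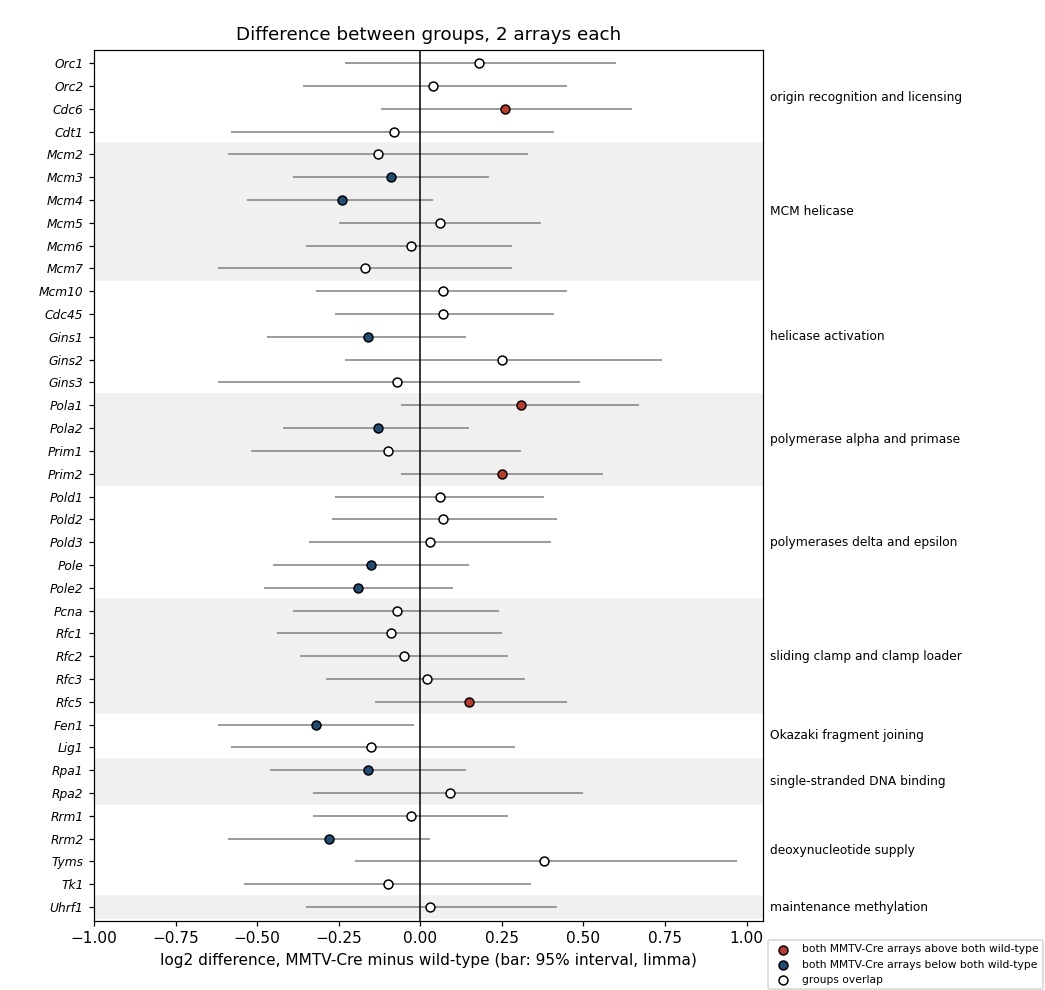
Log2 difference of each of the 38 members, MMTV-Cre minus wild-type (x axis), with the 95% interval from limma as a bar, 2 arrays per group. Filled symbols mark the 13 members whose groups were separate, 4 red (higher in MMTV-Cre) and 9 blue (lower), and the interval of Fen1 alone leaves out 0.

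Several probe sets were present for 4 members, and these did not agree in each case. For Pole the second probe set stood at 2.82 and 2.63 in MMTV-Cre against 2.09 and 2.32 in wild-type, a difference of 0.52, while the brighter one that stood for the gene had −0.15. For Rrm2 the values were −0.28 (brighter) and 0.07. Both probe sets of Rpa1 gave the same direction, −0.16 and −0.44. The mean of both probe sets turned Pole to 0.19. The direction given above for Fen1, Pole and Rrm2 therefore holds for the brighter probe set, and the dimmer one lay on the other side of 0.

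**Figure D3:**
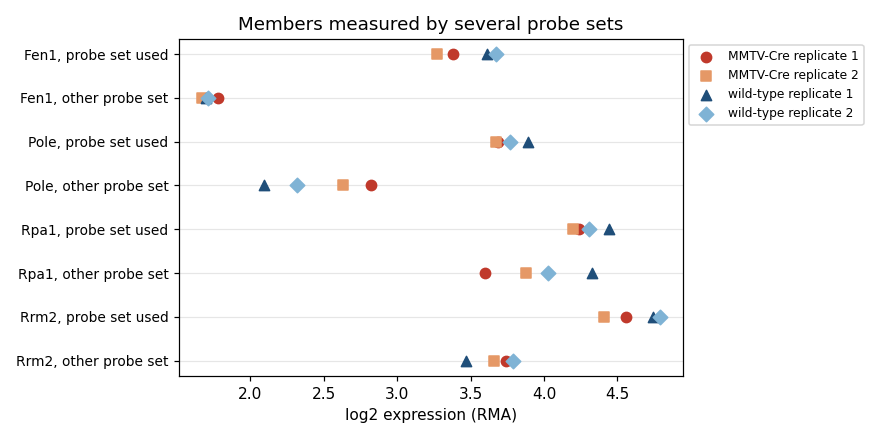
Log2 expression (x axis) in each of the 4 arrays for both probe sets of Fen1, Pole, Rpa1 and Rrm2 (rows), the probe set used being the brighter one. Symbols of MMTV-Cre lie to the left of wild-type for the 4 probe sets used, but to the right for the other probe set of Pole.

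Other genes around DNA replication were read in the same fit, and none passed. Of 48 further replication genes 45 were measured, among them remaining subunits, origin firing kinases and histone chaperones. In either direction 0 passed, and the median difference was −0.02. Of the 45, 26 lay below 0 (57.8%, against 50.4% of all genes) and 31.1% had separate groups (against 33.0%). Chtf8, part of an alternative clamp loader, stood at 7.16 and 7.27 in MMTV-Cre against 6.76 and 6.80 in wild-type, a difference of 0.44 (0.14 to 0.74, limma adjusted p = 0.963). Both MMTV-Cre arrays of Chtf8 were higher. Ctc1, a telomere replication factor, differed by 0.38, the histone chaperone Asf1b by 0.23, and Topbp1, needed for origin firing, by −0.22, each with separate groups. Of 26 E2F and G1/S control genes 0 passed, and the median was −0.05. In this list 15 lay below 0 (57.7%, against 50.4% of all genes) and 38.5% had separate groups (against 33.0%). Cdkn2c, an inhibitor of Cdk4 and Cdk6, differed by 0.49 (0.06 to 0.91) and E2f3, an activating E2F, by 0.35, both separate upward with wild-type replicate 1 lowest. Cdk6, a G1 kinase, differed by −0.25 and Tfdp2, a binding partner of E2F proteins, by −0.30.

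Of 23 mitosis genes 0 passed either, and the median was −0.01. In this list 12 lay below 0 (52.2%, against 50.4% of all genes) and 21.7% had separate groups (against 33.0%). Aurka, a spindle kinase, was the one with the smallest p, at 3.92 and 3.99 in MMTV-Cre against 3.23 and 3.40 in wild-type. Both MMTV-Cre arrays of Aurka were higher, with a difference of 0.64 (0.32 to 0.95, limma unadjusted p = 0.00285, adjusted p = 0.963). Bub1 and Birc5, of the spindle checkpoint and the chromosomal passenger complex, differed by −0.24 and −0.16, and Ube2c, which helps to degrade mitotic cyclins, by 0.26. The general proliferation genes were level: Mki67 stood at 5.72 and 5.93 against 5.63 and 5.98, and Top2a at 5.35 and 5.45 against 5.34 and 5.48. Differences of these genes were 0.03 and −0.01. The medians of these 3 lists and of the 38 members all lay within 0.05 of 0.

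The mean relative level of the replication genes was 0.00 in wild-type replicate 1, 0.02 in wild-type replicate 2, and 0.02 and −0.03 in MMTV-Cre. In wild-type replicate 1, where lymphocyte transcripts were high, 12 members had their highest value and 12 their lowest (31.6% each, against 23.4% and 26.2% of all genes). Without that array the median difference of the members was 0.00, 20 of 38 lay below 0, and 24 were separate from the 1 wild-type array left (63.2%, against 64.4% of all genes). The direction of 9 members turned without it. MMTV-Cre replicate 2, the array with the highest fibroblast markers, held the lowest value for 15 of the 38 members (39.5%, against 23.8% of all genes), among them Mcm7, Lig1, Rrm2 and Tk1. Without it the median difference was 0.01, and 13 members lay on the other side of 0. The part of lymphocytes and stromal cells in these values was not tested.

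**Figure D4:**
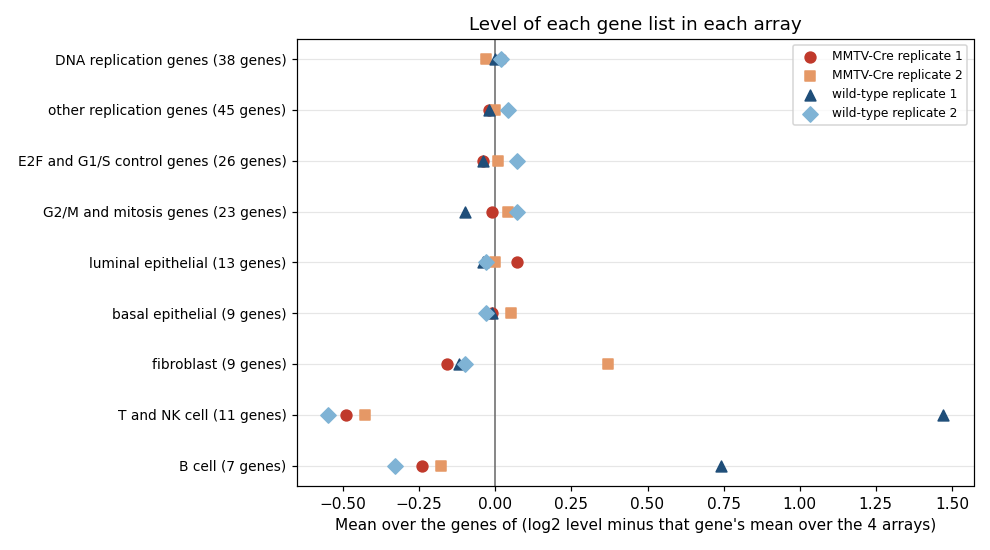
Mean relative log2 level (x axis; each gene minus its own mean over the 4 arrays, averaged over the list) of the replication genes, 3 related lists and 5 marker lists, with 1 symbol per array. The 4 symbols of the 38 replication genes lie between −0.03 and 0.02, while the T and NK cell list reaches 1.47 in wild-type replicate 1 and the fibroblast list 0.37 in MMTV-Cre replicate 2.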

How the data were processed

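Labelled cDNA from 50 ng of total RNA per sample was hybridised to 4 arrays, 2 per group. The authors deposited log2 expression values per probe set, made with oligo and RMA per the submitters' processing notes. No versions or annotation are given in the sources used here. Positive values with medians near 2.84 set the scale as log2. RMA equalises the arrays, so a shift shared by most genes is not visible. Of 41345 probe sets, 23521 had 1 symbol in the platform annotation, 1814 several and 16010 none.

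MMTV-Cre was set against wild-type by limma 3.58.1 (lmFit, eBayes without trend; R 4.3.3) on all 22180 genes without a filter, two-sided, with Benjamini-Hochberg adjustment at 0.05. Intervals are 95% intervals of that fit. Its p-values and intervals use a variance drawn towards a value common to all genes, with a prior weight of 3.67 degrees of freedom. In 10 simulated data sets of 22180 genes for this comparison, 0% of changes of 0.3 log2 units were called, 22.4% at 1 and 93.4% at 2. Of unchanged genes 0.0259% were called. Changes of 0.3, 1, 2 and 3 log2 units were planted together, and large ones ease the adjusted threshold for the rest. The noise was independent and normal, with no array standing apart as wild-type replicate 1 did. The rates hold for that setting and may overstate what these 4 arrays could call. Precision is limited by the number of arrays.

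The members and lists were chosen with earlier results of these data known. All members are named, with up to 4 genes of each related list by smallest p, Mki67 and Top2a, and marker genes of wide range. Alternatives were filters on dim genes, other uses of probe sets, normalizations, variance models and thresholds, the replicate block, and leaving out each array. Same-numbered samples did not deviate together (correlation of deviations −0.02), so the numbers were not taken as pairs. With 2 samples per group this correlation rests on the gap inside each group, so it cannot exclude pairing.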

Additional observations from a re-analysis of the deposited data

How the results depend on the processing

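No member passed under any alternative run with an adjusted p, the smallest adjusted p among members ranging from 0.84 to 0.999. At an unadjusted p under 0.05 the counts were 1012 genes and 1 member. With an adjusted p and all 4 arrays, 0 genes passed under each alternative; leaving out 1 array gave 0 to 7. These 7 passed without wild-type replicate 2, and Cd3g and Ighm, both highest in wild-type replicate 1, were among them. The members' median difference was −0.08 under the filter at the 75th percentile, which left 14 members. Leaving out 1 array moved it between −0.06 (without wild-type replicate 2) and 0.01 (without MMTV-Cre replicate 2). In each such fit the group with 1 array is assumed to vary like the other. The replicate numbers were not taken as pairs in the main fit. With the replicate block 0 genes and 0 members passed, with a median of −0.04. With all 4 arrays and 1 value per gene, only Pole changed sign, under the mean of its probe sets; 5 members did without MMTV-Cre replicate 1, 13 without MMTV-Cre replicate 2, 9 without wild-type replicate 1 and 6 without wild-type replicate 2, none past the threshold. Fen1 had an unadjusted p above 0.05 with the variance trend, quantile normalization, median centring, the replicate block, the mean of probe sets and without any 1 array. Other members had one under 0.05: Mcm4 and Rrm2 with the filter at the 75th percentile, the second probe sets of Pole (0.52, opposite in direction to the one used) and Rpa1 (−0.44), Mcm7 without MMTV-Cre replicate 1, Gins2 without MMTV-Cre replicate 2, and Pola1 and Tyms without wild-type replicate 2. The counts of members below 0 and separate without wild-type replicate 1 were chosen after seeing the data.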
